A study of Mus musculus with 12 samples.

Results

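The Wnt genes described here are the 19 Wnt ligands, 10 Frizzled receptors, 2 Lrp co-receptors, 4 R-spondins, 4 Dkk and 4 Sfrp antagonists, 2 Axin scaffolds and 4 TCF/LEF factors that the deposited probe table names by symbol. Membership was set by gene symbol, and the group comprises 49 genes with 76 probes, out of 56605 probes on the array. Expression was measured in C2C12, a myoblast line from C3H mouse muscle that fuses into myotubes when it is grown to confluence and moved to medium low in serum. Cells had been transfected with a control siRNA (siControl) or an siRNA against Bach1 (siBach1), and RNA was taken before differentiation was induced (day 0) or at day 2 of differentiation in horse serum medium, with 3 arrays for each of the 4 conditions. Bach1 is a haem-regulated transcription repressor, and the study asked how its loss changes gene expression in muscle cells. A single siRNA against Bach1 was used on the arrays, and all cells were of 1 line. The labels number the replicates but do not say whether they came from separate cultures, so p-values here measure the spread between these arrays, which may be technical.

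Wnt ligands are secreted glycoproteins that bind a Frizzled receptor together with Lrp5 or Lrp6. In the canonical branch the Axin destruction complex is then held back, β-catenin accumulates, and TCF/LEF factors switch from repressing to activating their targets, Axin2 and Lef1 among them. Dkk proteins block the co-receptors, Sfrp proteins bind the ligands, and R-spondins keep Frizzled receptors at the cell surface. In muscle, Wnt signals are known to act on satellite cells and on the commitment and fusion of myoblasts.

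Signals are given as log2 of the background-subtracted intensity relative to the array's 75th percentile, so a value of 0 lies at that percentile. A difference of 1 is a 2-fold change, and levels of different probes are not compared. Between 47.6% and 58.9% of probes on an array were well above background by the scanner's own flag. Bach1 itself read 1.73, 1.55 and 1.78 in siControl and 0.18, -0.22 and -0.22 in siBach1 cells at day 0, then 2.56, 2.55 and 2.58 (siControl) with 0.57, 0.56 and 0.65 (siBach1) at day 2, a difference of -1.77 ± 0.11 (SE, n = 3, adjusted p = 1.23e-05) at day 0 and -1.97 ± 0.11 (SE, n = 3, adjusted p = 1.36e-05) at day 2, with no overlap between siRNAs. Hmox1, a known Bach1 target, was 9.86-fold higher in siBach1 cells at day 0 and 8.72-fold higher at day 2. Of 6 myoblast markers, 5 were above background on all 12 arrays, and the summed signal of the 6 was higher in siBach1 than in siControl cells at day 0 (8.23 to 8.39 against 7.96 to 8.08) and lower at day 2 (8.98 to 9.04 against 9.28 to 9.33), without overlap. The summed signal of 8 myotube markers lay between 5.95 and 6.44 in siControl cells and between 5.87 and 6.32 in siBach1 cells at day 0. At day 2 it lay between 10.98 and 11.10 in siControl and between 10.34 and 10.62 in siBach1 cells, so the ranges of the siRNAs did not overlap at day 2. The part of these marker differences in the Wnt results of either day was not tested, and in a bulk sample fewer differentiated cells cannot be told apart from less RNA per cell. Of markers of other cell types, 3 of 4 endothelial genes (Cdh5, Kdr and Tek), 1 of 4 adipocyte genes (Adipoq), 1 of 4 epithelial genes (Epcam) and 0 of 4 osteoblast genes were above background on no array, and 1 of 4 adipocyte, epithelial and osteoblast genes each (Lep, Krt14 and Sp7) was above it on all 12. Pecam1 was above background on all arrays but 1, and a probe of Plin1 on all but 2. The immune list (4 of 4 genes with a probe above background on all 12 arrays) summed to 4.17 to 4.43 and 4.24 to 4.38 at day 0 and to 4.71 to 5.12 and 4.45 to 5.07 at day 2 in siControl and siBach1 cells. The epithelial list summed to 2.19 to 2.55 and 2.36 to 3.15 at day 0 and to -0.39 to 0.70 and 0.94 to 1.63 at day 2. The epithelial ranges of the siRNAs did not overlap at day 2, when Krt14 was higher in siBach1 cells by 1.50 (adjusted p = 0.00763). The endothelial list stayed between -3.29 and -2.58, the adipocyte list between -1.16 and -0.16, and the osteoblast list between -0.31 and 0.83. The part of these lists in the changes over time and in the silencing results was not tested. A condition always sat in the same column of a slide, so array position and condition cannot be told apart.

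Nearly all Frizzled, Lrp, Axin and TCF/LEF genes were measured above background in these cells, and fewer of the ligands and R-spondins were. Of the 76 probes, 33 (24 genes) were above background on all 12 arrays and 21 on none. The 46 probes of 33 genes that were above background on every array of at least 1 condition were tested, and another 9 probes were above background on some arrays only. A tested probe was held by 9 of the 10 Frizzled genes, both co-receptors, all TCF/LEF factors and both Axins. Such a probe was also held by 10 of the 19 ligands (Wnt1, Wnt4, Wnt5a, Wnt5b, Wnt6, Wnt7b, Wnt9a, Wnt10a, Wnt10b and Wnt11), 2 of 4 Dkk, 3 of 4 Sfrp and 1 of 4 R-spondin genes. The 9 genes with no probe above background on any array were Wnt2b, Wnt3a, Wnt16, Fzd10, Dkk1, Dkk4, Sfrp1, Rspo1 and Rspo4.

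Upon Bach1 silencing, Dkk2, Wnt6, Sfrp4 and Wnt10a fell and Lef1, Fzd9, Fzd3, Fzd1, Tcf7l2 and Tcf7 rose at day 0, whereas at day 2 Fzd1, Fzd4, Fzd5 and Fzd8 rose and Wnt9a and Tcf7l1 fell. At day 0, 10 of the 46 probes passed the test (Benjamini-Hochberg adjusted p under 0.05 over all probes), 6 higher and 4 lower in siBach1 cells. This share of 21.7% stands beside 17.1% of all tested probes (8.80% higher, 8.32% lower). Only Dkk2 among them changed at least 2-fold, where 2.79% of all probes did. At day 2, 8 of 46 passed, 6 higher and 2 lower, or 17.4% beside 12% of all probes (5.75% higher, 6.26% lower), and both Fzd4 probes changed at least 2-fold, where 2.17% of all probes did. The 3 siBach1 and 3 siControl arrays did not overlap for 23 of 46 probes at day 0 and for 20 at day 2, against 37.3% and 32.8% of all tested probes. The median log2 difference over the 46 probes was 0.18 at day 0 and 0.07 at day 2, against 0.09 and -0.01 over all probes. With the replicate number as a block, 15 probes passed at day 0 (11 higher, 4 lower) and 15 at day 2 (12 higher, 3 lower). The shares of all probes above are of the fit without the block, and none was computed with it. These blocked counts therefore cannot be set beside them. The block also raised the count among 144 tested probes of other Wnt pathway genes, from 37 to 50 at day 0 and from 22 to 31 at day 2. All probes that passed had the same direction on the first slide, which held replicates 1 and 2, and on the second, which held replicate 3. They had passed in a fit that used both slides, so this agreement was largely set by that choice and is no separate check.

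**Figure D1:**
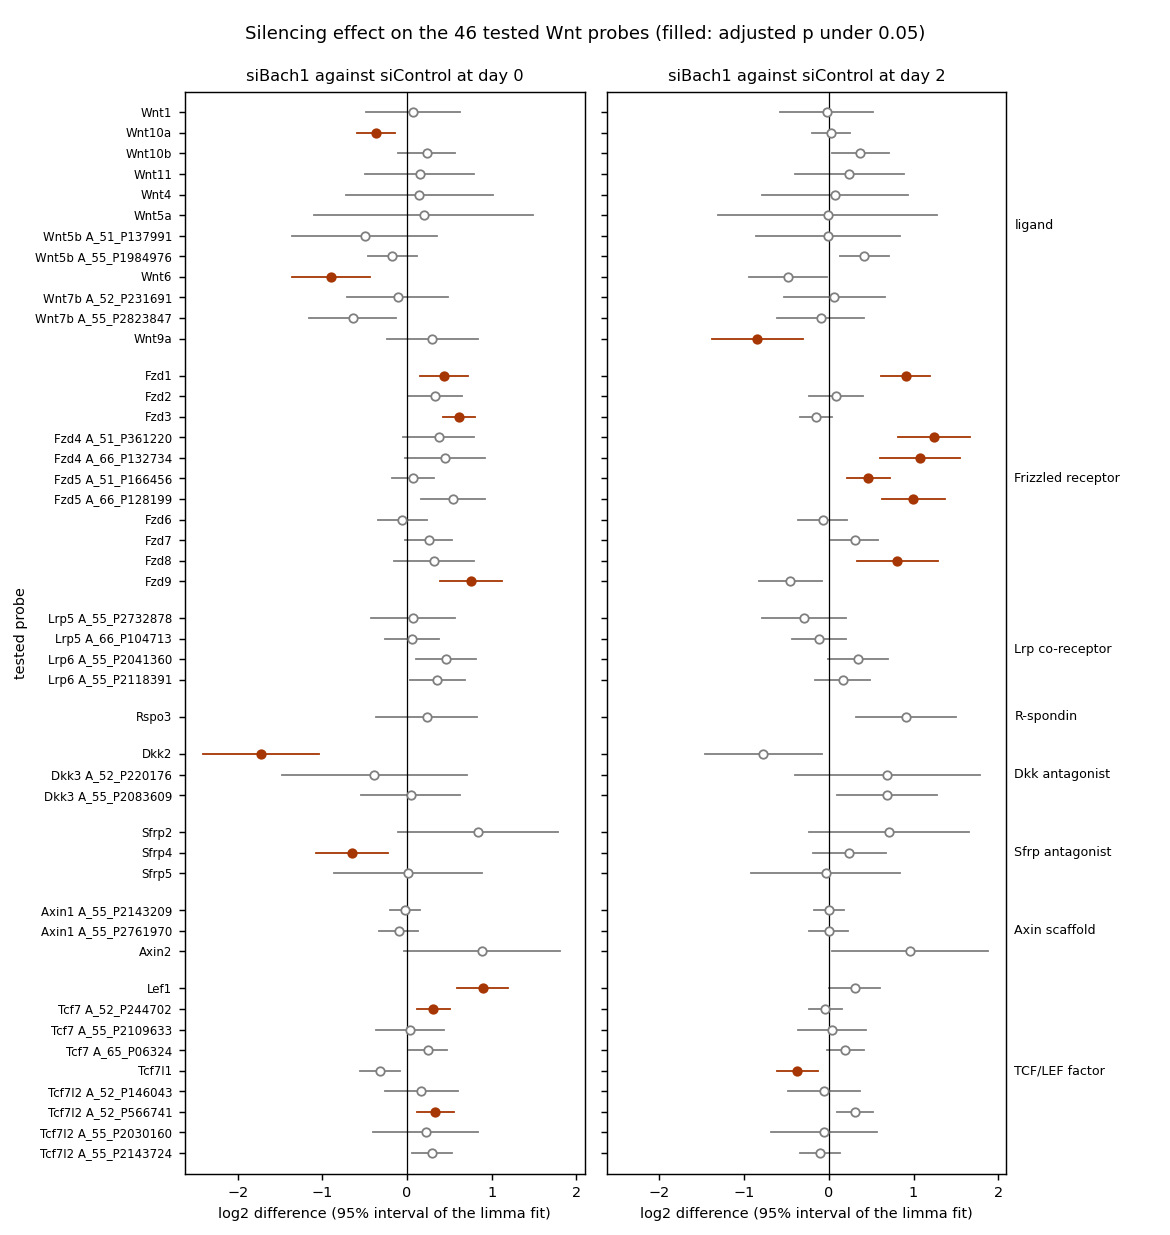
Log2 difference between siBach1 and siControl arrays for the 46 tested Wnt probes at day 0 (left) and day 2 (right), grouped by role. Points are estimates of the limma fit, lines their 95% intervals, and filled points passed at an adjusted p under 0.05. At day 2, the 6 filled points to the right of 0 are all Frizzled probes, and at day 0 the point farthest from 0 is Dkk2 at -1.72.

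Fzd1, Fzd4, Fzd5 and Fzd8, membrane receptors that take up Wnt ligands, were higher in siBach1 than in siControl cells at day 2, by 6 of the 11 tested Frizzled probes with none lower, where 5.75% of all tested probes were higher. The median over the 11 probes was 0.47, against -0.01 over all probes, and was 0.25 with normexp background correction and 0.31 with 1 probe per gene or with only the probes above background on all 12 arrays. The number that passed higher at day 2 was 4 with quantile normalization, with normexp background correction, with no filter on dim probes and when only the arrays of the comparison were fitted, 3 on the first slide alone, 1 by the methods' t-test once adjusted, and 6 with the replicate number as a block. No Frizzled probe passed in the lower direction at either day in any of the settings tried, except 1 at day 2 in the methods' t-test without adjustment.

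Fzd4, a receptor for norrin as well as for Wnt ligands, showed the largest silencing difference among the 46 Wnt probes at day 2 and is represented by 2 probes. The first (A_51_P361220) read -1.27, -1.29 and -0.93 in siControl and -0.71, -0.90 and -0.77 in siBach1 cells at day 0, then -1.14, -0.84 and -1.24 (siControl) with 0.06, -0.16 and 0.60 (siBach1) at day 2. The difference at day 2 was 1.24 ± 0.19 (SE, n = 3, adjusted p = 0.00321), or 2.37-fold. The second (A_66_P132734) read -2.04, -2.09 and -2.21 in siControl and -1.57, -1.74 and -1.69 in siBach1 cells at day 0, then -1.83, -1.16 and -1.74 (siControl) with -0.68, -0.79 and -0.03 (siBach1) at day 2, with a difference at day 2 of 1.08 ± 0.21 (SE, n = 3, adjusted p = 0.0105). For both probes the siBach1 arrays of day 2 lay above all other arrays. At day 0 the differences were 0.37 (adjusted p = 0.214) and 0.45 (adjusted p = 0.181), with every siBach1 array above every siControl array. Over the alternatives (other normalizations, filters, tests and blocks, the first slide alone, and single arrays removed) the day 2 call held in 23 of 24 settings for the first probe and 20 of 23 for the second.

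Fzd1, which binds canonical ligands, passed on both days. Its signal was 1.61, 1.40 and 1.39 in siControl and 1.96, 1.67 and 2.08 in siBach1 cells at day 0, then 1.82, 1.73 and 1.77 (siControl) with 2.85, 2.47 and 2.71 (siBach1) at day 2. The siBach1 arrays were above the siControl arrays on each day without overlap, by 0.43 ± 0.13 (SE, n = 3, adjusted p = 0.0429) at day 0 and 0.91 ± 0.13 (SE, n = 3, adjusted p = 0.00219) at day 2. The day 2 call held in 24 of 24 settings, while the day 0 call held in 11 of 24. Fzd5 was also measured by 2 probes. Probe A_66_P128199 read -4.02, -3.87 and -3.93 in siControl and -3.24, -3.32 and -3.64 in siBach1 cells at day 0, then -2.37, -2.76 and -3.07 (siControl) with -1.61, -1.85 and -1.75 (siBach1) at day 2, a rise upon silencing of 1.00 ± 0.17 (SE, n = 3, adjusted p = 0.00499) at day 2, just under 2-fold. Over the alternatives that day 2 rise ran from 0.54 to 1.18. The day 0 difference of 0.54 missed the threshold (adjusted p = 0.0508; adjusted p = 0.0234 with the replicate number as a block, 0.0136 to 0.159 over its alternatives). Probe A_51_P166456, above background on 2 of the 3 siBach1 arrays of day 0, read -3.76, -4.14 and -3.75 in siControl and -3.80, -3.79 and -3.85 in siBach1 cells at day 0, then -3.60, -3.37 and -3.43 (siControl) with -2.91, -3.05 and -3.05 (siBach1) at day 2. Its day 2 difference was 0.47 ± 0.11 (SE, n = 3, adjusted p = 0.0253), and 0.07 to 0.51 over the alternatives. It passed in 12 of 22 settings against 23 of 24 for the first probe. The probes had the same direction at day 2 but differed in size.

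Fzd8 was near the limit of detection, with 2 of 3 siControl arrays of day 0 above background, and its other probe was above background on no array. It read -3.95, -4.03 and -4.09 in siControl and -3.68, -3.91 and -3.53 in siBach1 cells at day 0, then -3.44, -3.66 and -3.66 (siControl) with -2.31, -3.33 and -2.69 (siBach1) at day 2. The day 2 difference of 0.81 ± 0.21 (SE, n = 3, adjusted p = 0.0350) came with a wide spread among the siBach1 arrays, and the call held in 8 of 23 settings. Over the alternatives this difference ran from 0.25 to 1.09.

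Promoter sequence is shown for receptors whose probes were higher upon silencing at day 2. The windows are the 250 bases upstream of the RefSeq start (GRCm38.p6) of Fzd1 (chr5:4758217-4758466, minus strand), Fzd4 (chr7:89404116-89404365, plus strand), Fzd5 (chr1:64737751-64738000, minus strand) and, for its contrasting pattern, Fzd9 (chr5:135251048-135251297, minus strand), written 5′ to 3′ along the gene. Bach1 is known to pair with small Maf proteins on antioxidant response elements, so the core TGACNNNGC was searched on both strands and is in capitals where found.
Fzd1: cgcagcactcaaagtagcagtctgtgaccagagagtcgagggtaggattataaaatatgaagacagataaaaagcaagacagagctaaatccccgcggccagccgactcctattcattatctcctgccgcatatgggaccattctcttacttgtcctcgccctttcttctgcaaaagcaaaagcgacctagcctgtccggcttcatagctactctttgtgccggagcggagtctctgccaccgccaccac
Fzd4: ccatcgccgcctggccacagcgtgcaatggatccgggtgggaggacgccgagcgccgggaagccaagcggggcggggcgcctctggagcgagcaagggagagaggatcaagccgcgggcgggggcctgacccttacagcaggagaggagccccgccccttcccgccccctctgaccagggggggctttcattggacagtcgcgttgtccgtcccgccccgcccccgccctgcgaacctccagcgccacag
Fzd5: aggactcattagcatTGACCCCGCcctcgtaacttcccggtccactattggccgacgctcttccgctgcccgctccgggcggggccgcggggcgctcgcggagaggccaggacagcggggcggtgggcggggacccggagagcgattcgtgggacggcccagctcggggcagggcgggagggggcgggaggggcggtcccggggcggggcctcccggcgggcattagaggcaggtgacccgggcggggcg
Fzd9: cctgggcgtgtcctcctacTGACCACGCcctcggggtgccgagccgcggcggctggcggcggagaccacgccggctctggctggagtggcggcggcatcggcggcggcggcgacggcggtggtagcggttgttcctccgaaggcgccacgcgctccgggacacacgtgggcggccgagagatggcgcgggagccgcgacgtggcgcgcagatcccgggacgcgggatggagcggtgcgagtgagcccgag
The core was found once each in the Fzd5 window (TGACCCCGC, 235 bases upstream) and the Fzd9 window (TGACCACGC, 231 bases upstream), and these letters were not in the other windows. It was present in 10.2% of the 32851 upstream windows of all genes and in 6 of the 40 windows of the 32 Wnt genes that had one. The AP-1 core TGANTCA, which can overlap the first motif, was in 6.75% of all windows and in 1 of the 40, at Wnt5b. The TCF core CTTTGAT was in 3.21% of all windows and in 2 of the 40, at Wnt5b and Wnt11. These matches describe the letters of the windows only.

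**Figure D2:**
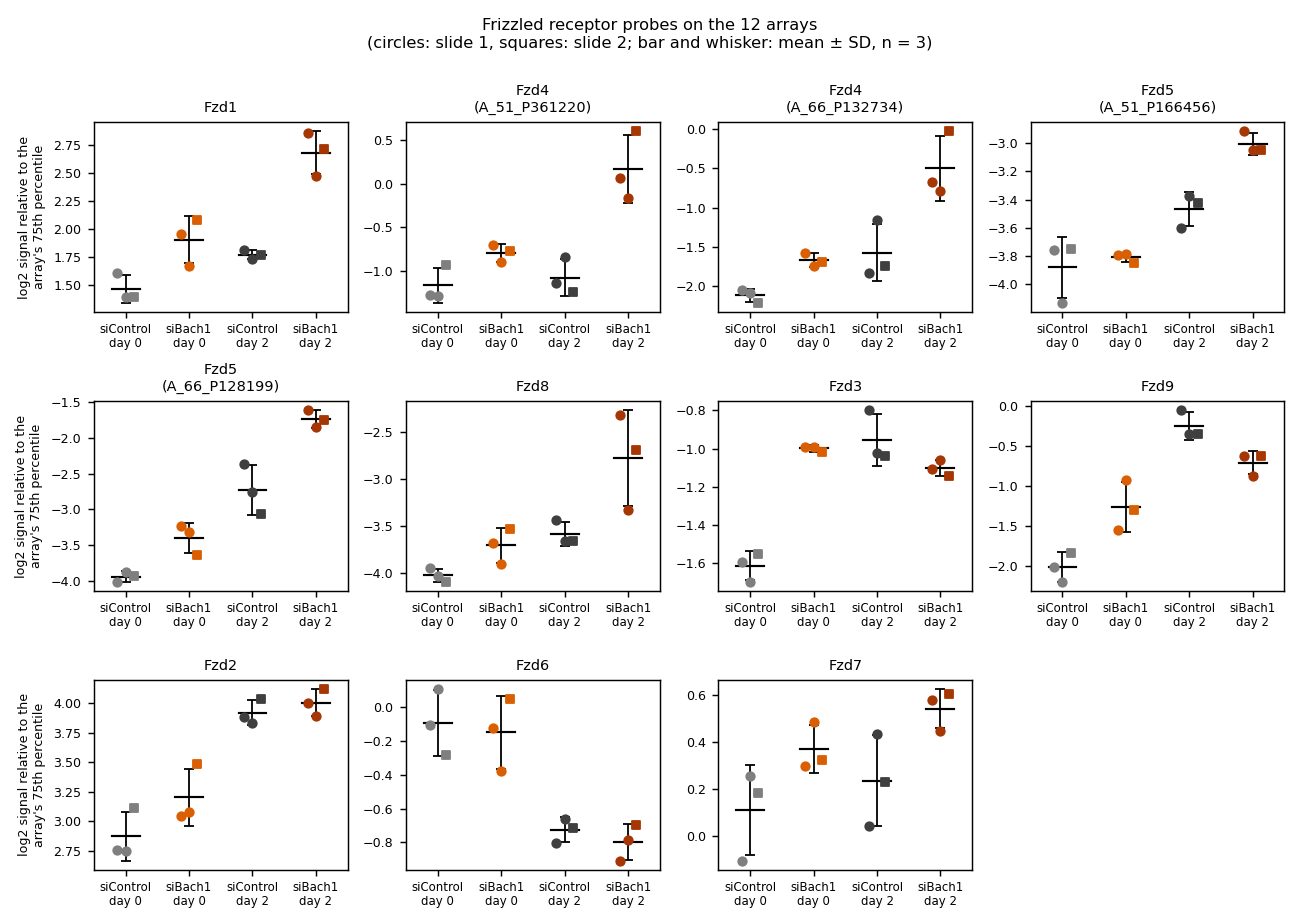
Signal of the 11 tested Frizzled probes on each array (log2 relative to the array's 75th percentile, vertical axes differ between panels) in the 4 conditions, with mean and SD over 3 arrays. For Fzd1, Fzd4 and Fzd5 the siBach1 arrays of day 2 lie above all others. For Fzd3 and Fzd9 siBach1 lies above siControl at day 0 and below it at day 2, where neither difference passed.

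For Fzd3 and Fzd9 the effect of silencing depended on the day. Fzd3, known for its role in axon guidance through planar cell polarity signalling, read -1.59, -1.70 and -1.55 in siControl and -0.99, -0.99 and -1.02 in siBach1 cells at day 0, then -0.80, -1.02 and -1.04 (siControl) with -1.11, -1.06 and -1.14 (siBach1) at day 2. The siControl arrays of day 0 were the low group, and the other conditions lay close together. Silencing raised the signal by 0.62 ± 0.08 (SE, n = 3, adjusted p = 0.000835) at day 0, and the difference at day 2 was -0.15 (adjusted p = 0.295). The change in the effect between days was -0.76 ± 0.12 (SE, n = 3, adjusted p = 0.0109) and held in 19 of 21 settings. Fzd9 read -2.01, -2.20 and -1.83 in siControl and -1.55, -0.92 and -1.30 in siBach1 cells at day 0, then -0.05, -0.35 and -0.35 (siControl) with -0.62, -0.87 and -0.62 (siBach1) at day 2. It was 1.68-fold higher upon silencing at day 0, 0.75 ± 0.17 (SE, n = 3, adjusted p = 0.0118), and at day 2 all 3 siBach1 arrays lay below the siControl arrays with a difference of -0.46 (adjusted p = 0.106). The effect changed by -1.21 ± 0.24 (SE, n = 3, adjusted p = 0.0218) between the days, a call that held in 14 of 21 settings. These were the 2 of 46 probes to pass the test of the difference, beside 4.59% of all tested probes. In siControl cells Fzd9 rose 3.39-fold from day 0 to day 2 and Fzd3 rose 1.58-fold (adjusted p = 9.44e-06 and 7.45e-05), whereas in siBach1 cells Fzd9 rose 1.47-fold (adjusted p = 0.0160) and the Fzd3 difference was -0.10 (adjusted p = 0.332). With the replicate number or the slide as a block, 5 probes passed the test of the difference (2 higher, 3 lower). The 4.59% of all probes is of the fit without a block, so it is no share for these counts.

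Fzd2, Fzd6 and Fzd7 did not pass in either silencing comparison. Fzd2, which rose during differentiation, read 2.76, 2.75 and 3.11 in siControl and 3.05, 3.08 and 3.48 in siBach1 cells at day 0, then 3.88, 3.84 and 4.04 (siControl) with 4.002, 3.89 and 4.12 (siBach1) at day 2. All day 2 arrays were above all day 0 arrays, and the increase in siControl cells was 1.04 ± 0.14 (SE, n = 3, adjusted p = 0.000119). The silencing difference at day 0 was 0.33 (adjusted p = 0.143; adjusted p = 0.0147 with the replicate number as a block, 0.00982 to 0.386 over its alternatives). Fzd6 and Fzd7 differed by -0.06 (adjusted p = 0.821) and 0.26 (adjusted p = 0.193) at day 0 and by -0.07 (adjusted p = 0.787) and 0.31 (adjusted p = 0.145) at day 2. For Fzd7, the receptor through which Wnt7a is known to act on muscle stem cells, the 95% interval of the day 2 difference, not adjusted for the number of probes, was 0.03 to 0.58.

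Wnt6 and Wnt10a fell upon silencing at day 0 and Wnt9a at day 2, and none of the 12 tested ligand probes passed as higher. The share that passed, all lower, was 16.7% at day 0 and 8.33% at day 2. Of all tested probes, 8.32% and 6.26% were lower and 8.80% and 5.75% higher. With 12 probes, no pattern of the ligands is read from these counts. A Wnt5b probe did pass as higher at day 2 with the replicate number as a block. Wnt6 read -2.79, -2.41 and -2.90 in siControl and -3.45, -3.36 and -3.98 in siBach1 cells at day 0, then -2.65, -2.34 and -3.02 (siControl) with -3.27, -3.10 and -3.08 (siBach1) at day 2, and was above background on 2 of 3 siBach1 arrays of day 0. It was lower in siBach1 cells without overlap on each day, with differences of -0.90 ± 0.21 (SE, n = 3, adjusted p = 0.0144) at day 0 and -0.48 at day 2 (adjusted p = 0.166; adjusted p = 0.0452 with the replicate number as a block, 0.0452 to 0.405 over its alternatives). Wnt10a, a canonical ligand, read 2.76, 2.79 and 2.91 in siControl and 2.46, 2.47 and 2.42 in siBach1 cells at day 0, then 3.47, 3.67 and 3.65 (siControl) with 3.59, 3.45 and 3.81 (siBach1) at day 2. It was lower upon silencing at day 0, with a difference of -0.37 ± 0.10 (SE, n = 3, adjusted p = 0.0312). This call held in 16 of 24 settings and was lost when any of the compared day 0 arrays was left out. At day 2 the groups overlapped, with a difference of 0.02 (adjusted p = 0.930).

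Wnt9a was the ligand most increased during differentiation. Its signal was -0.38, -0.75 and -0.70 in siControl and -0.23, -0.46 and -0.25 in siBach1 cells at day 0, then 2.59, 1.84 and 2.30 (siControl) with 1.82, 0.89 and 1.47 (siBach1) at day 2. From day 0 to day 2 it rose 7.22-fold in siControl cells, 2.85 ± 0.24 (SE, n = 3, adjusted p = 4.40e-06), and 3.26-fold in siBach1 cells, 1.71 ± 0.24 (SE, n = 3, adjusted p = 0.000147). The siBach1 arrays of day 2 lay under those of siControl without overlap, a difference of -0.85 ± 0.24 (SE, n = 3, adjusted p = 0.0470), and this call held in 9 of 24 settings. The day dependence of the silencing effect was -1.15, which did not pass (adjusted p = 0.0856; adjusted p = 0.0124 with the replicate number as a block, 0.0124 to 0.272 over its alternatives).

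Wnt7b, known from epithelial and neuronal Wnt signalling, fell during differentiation by both probes. Probe A_52_P231691 read -0.93, -0.89 and -1.12 in siControl and -0.88, -0.66 and -1.73 in siBach1 cells at day 0, then -2.19, -2.75 and -2.41 (siControl) with -2.19, -2.19 and -2.77 (siBach1) at day 2, and dropped by 1.47 ± 0.27 (SE, n = 3, adjusted p = 0.000915) in siControl and by 1.29 ± 0.27 (SE, n = 3, adjusted p = 0.00195) in siBach1 cells. Probe A_55_P2823847 read 0.42, 0.56 and 0.67 in siControl and -0.29, 0.14 and -0.13 in siBach1 cells at day 0, then -0.37, -1.17 and -0.26 (siControl) with -0.99, -0.57 and -0.53 (siBach1) at day 2, with changes of -1.15 (adjusted p = 0.00162) and -0.60 (adjusted p = 0.0450). Day 2 arrays lay below day 0 arrays of the same siRNA throughout. For the second probe, all siBach1 arrays of day 0 were below the siControl arrays, with a difference of -0.64 (adjusted p = 0.0846), and the first showed -0.11 (adjusted p = 0.826). Wnt10a rose over time by 0.78 ± 0.10 (SE, n = 3, adjusted p = 8.80e-05) in siControl and 1.17 ± 0.10 (SE, n = 3, adjusted p = 4.99e-06) in siBach1 cells. A Wnt5b probe (A_55_P1984976) fell in siControl cells, -0.79 (adjusted p = 0.000433), and changed by -0.20 (adjusted p = 0.223) in siBach1 cells. Its silencing difference at day 2 was 0.42, with no overlap (adjusted p = 0.0642; adjusted p = 0.0168 with the replicate number as a block, 0.0130 to 0.714 over its alternatives). The remaining ligand probes, of Wnt1, Wnt4, Wnt5a, Wnt10b, Wnt11 and the second of Wnt5b, passed in none of the 5 comparisons.

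Dkk2 and Sfrp4 were the secreted antagonists that fell upon silencing, both at day 0. Dkk2, which binds Lrp5 and Lrp6, read -1.44, -1.18 and -1.96 in siControl and -3.11, -2.89 and -3.75 in siBach1 cells at day 0, then -2.75, -2.74 and -2.26 (siControl) with -3.65, -2.75 and -3.67 (siBach1) at day 2, with 2 of 3 siBach1 arrays of day 0 above background. The siControl arrays of day 0 stood above all other arrays. Silencing lowered it 3.30-fold at day 0, -1.72 ± 0.31 (SE, n = 3, adjusted p = 0.00409), a call that held in 22 of 23 settings. With normexp background correction the difference was -0.97, under 2-fold. At day 2 the siBach1 arrays were again below the siControl arrays, 1 of them only narrowly, with a difference of -0.77 (adjusted p = 0.136). In siControl cells it fell 2.08-fold over time, -1.05 ± 0.31 (SE, n = 3, adjusted p = 0.0148), while in siBach1 cells the change was -0.11 (adjusted p = 0.802). The siControl change was -1.43 on the first slide and -0.30 on the second, and ran from -1.43 to -0.62 over the alternatives. The test of the day dependence gave 0.95 (adjusted p = 0.241).

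Dkk3, a divergent member of the family that is not a clear Wnt antagonist, increased with differentiation. Its first probe (A_55_P2083609) read -1.94, -2.61 and -2.90 in siControl and -2.04, -2.65 and -2.65 in siBach1 cells at day 0, then -0.39, -0.69 and -0.67 (siControl) with 0.27, -0.29 and 0.34 (siBach1) at day 2. The rise was 3.74-fold in siControl cells, 1.90 ± 0.27 (SE, n = 3, adjusted p = 0.000141), and 5.86-fold in siBach1 cells, 2.55 ± 0.27 (SE, n = 3, adjusted p = 1.71e-05) (1.91 with normexp background correction), with every day 2 array above every day 0 array. At day 2 it was higher in siBach1 cells on all arrays, by 0.69 (adjusted p = 0.125; adjusted p = 0.0312 with the replicate number as a block, 0.0312 to 0.319 over its alternatives). Its second tested probe, above background on 2 of 3 siControl arrays of day 0, changed by 0.78 (adjusted p = 0.210) and 1.85 (adjusted p = 0.00823) over time. Sfrp4 read -2.56, -3.04 and -3.08 in siControl and -3.15, -3.84 and -3.65 in siBach1 cells at day 0, then -3.08, -3.23 and -3.09 (siControl) with -2.76, -3.13 and -2.79 (siBach1) at day 2. It was lower upon silencing at day 0, -0.65 ± 0.19 (SE, n = 3, adjusted p = 0.0439), a call that held in 8 of 24 settings. In siBach1 cells it then rose by 0.65 ± 0.19 (SE, n = 3, adjusted p = 0.0145), and the day dependence was 0.89 (adjusted p = 0.0928; adjusted p = 0.0190 with the replicate number as a block, 0.0190 to 0.331 over its alternatives). Sfrp2 and Sfrp5 passed in no comparison.

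**Figure D3:**
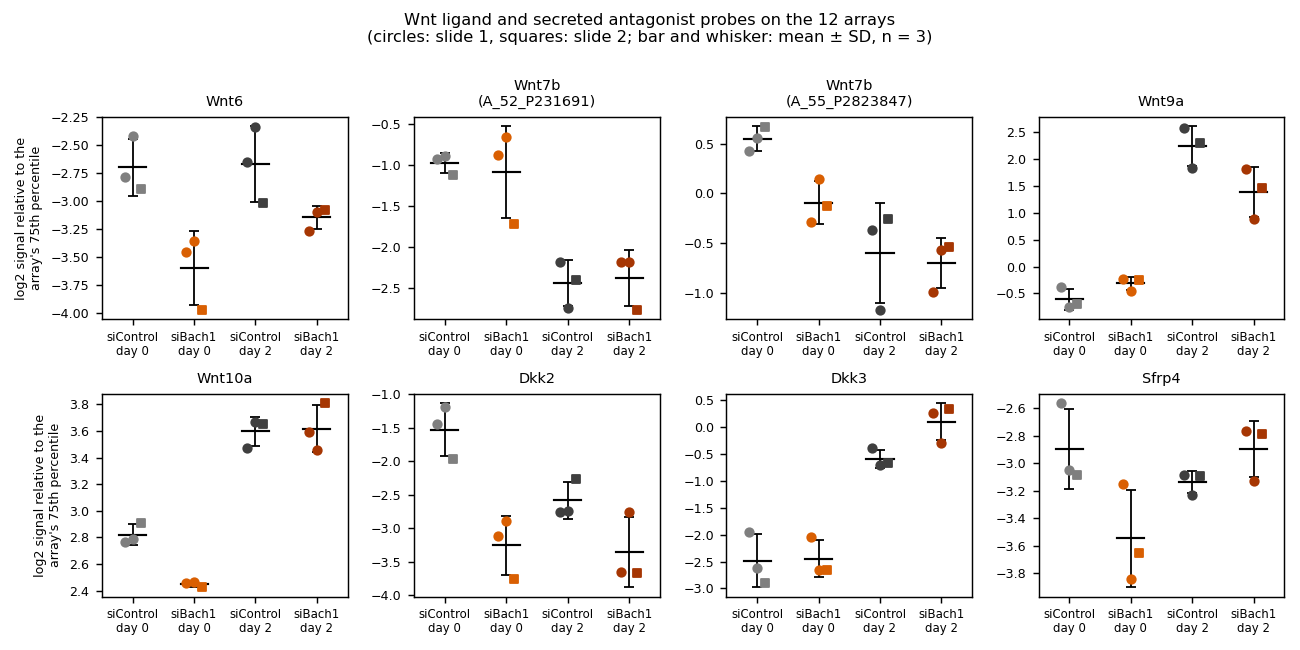
Signal of Wnt ligand and secreted antagonist probes on each array (log2 relative to the array's 75th percentile, vertical axes differ between panels) in the 4 conditions, with mean and SD over 3 arrays. Wnt9a and Dkk3 are higher at day 2 in both siRNA groups, Wnt7b is lower, and the siControl arrays of day 0 stand apart for Dkk2.

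The co-receptors and R-spondins did not pass in the silencing comparisons. The Lrp6 probes differed by 0.46 (adjusted p = 0.0771) and 0.36 (adjusted p = 0.124) at day 0, with siBach1 above siControl on all arrays. Both passed in the blocked fit (adjusted p = 0.0110 with the replicate number as a block, 0.00727 to 0.248 over its alternatives, and adjusted p = 0.0228 with the replicate number as a block, 0.0152 to 0.341 over its alternatives). Over time, probe A_55_P2118391 rose by 0.45 ± 0.15 (SE, n = 3, adjusted p = 0.0229) in siControl cells. The silencing differences of the Lrp5 probes lay between -0.29 and 0.07. Rspo3, a ligand of Lgr receptors and the R-spondin with a tested probe, was above background on 1 of 3 arrays in each day 0 condition and on all arrays at day 2. It rose by 1.37 ± 0.27 (SE, n = 3, adjusted p = 0.00132) in siBach1 cells, and the silencing difference at day 2 was 0.91 (adjusted p = 0.0523; adjusted p = 0.0178 with the replicate number as a block, 0.0125 to 0.376 over its alternatives). Over the alternatives the rise ran from 0.38 to 1.56 and the day 2 difference from 0.21 to 1.1.

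Lef1, Tcf7 and Tcf7l2 were higher upon silencing at day 0 and Tcf7l1 was lower at day 2. Lef1, a nuclear partner of β-catenin and itself a canonical target, read 1.25, 1.45 and 1.67 in siControl and 2.30, 2.45 and 2.30 in siBach1 cells at day 0, then 1.36, 0.98 and 1.41 (siControl) with 1.56, 1.49 and 1.62 (siBach1) at day 2. Its siBach1 arrays of day 0 lay above all others. The difference at day 0 was 0.90 ± 0.13 (SE, n = 3, adjusted p = 0.00151), or 1.86-fold, and held in 24 of 24 settings. At day 2 the siBach1 arrays were still above the siControl arrays, by 0.30 (adjusted p = 0.179). Over time Lef1 fell by 0.80 ± 0.13 (SE, n = 3, adjusted p = 0.000509) in siBach1 cells, and in siControl cells the change was -0.21 (adjusted p = 0.228). The difference between the silencing effects was -0.59 (adjusted p = 0.106). Its 2 other probes were above background on no array.

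Tcf7 is represented by 3 probes. The one that passed (A_52_P244702) read -0.46, -0.29 and -0.46 in siControl and -0.11, -0.16 and -0.01 in siBach1 cells at day 0, then -0.31, -0.19 and -0.43 (siControl) with -0.32, -0.40 and -0.33 (siBach1) at day 2, a rise of 0.31 ± 0.09 (SE, n = 3, adjusted p = 0.0358) upon silencing at day 0 that held in 11 of 23 settings. The others differed by 0.24 (adjusted p = 0.128) and 0.04 (adjusted p = 0.916). Tcf7l2, another TCF factor, rose by one of its 4 probes (A_52_P566741), which read 0.65, 0.70 and 0.69 in siControl and 1.11, 0.90 and 1.04 in siBach1 cells at day 0, then 0.57, 0.49 and 0.39 (siControl) with 0.80, 0.64 and 0.95 (siBach1) at day 2. The siBach1 arrays were above the siControl arrays on each day, by 0.33 ± 0.10 (SE, n = 3, adjusted p = 0.0414) at day 0, which held in 12 of 24 settings, and by 0.31 at day 2 (adjusted p = 0.0672; adjusted p = 0.0437 with the replicate number as a block, 0.0409 to 0.295 over its alternatives). At day 0 its other probes differed by 0.17 (adjusted p = 0.608), 0.22 (adjusted p = 0.650) and 0.29 (adjusted p = 0.0874). Tcf7l1, mostly a repressor of Wnt targets, moved the other way and read 0.30, 0.40 and 0.34 in siControl and 0.09, -0.02 and 0.01 in siBach1 cells at day 0, then 0.76, 0.56 and 0.99 (siControl) with 0.30, 0.49 and 0.41 (siBach1) at day 2. It was lower in siBach1 cells without overlap on each day, with a difference of -0.37 ± 0.11 (SE, n = 3, adjusted p = 0.0494) at day 2, where the call held in 8 of 24 settings, and of -0.32 (adjusted p = 0.0698) at day 0. Over time it rose by 0.42 ± 0.11 (SE, n = 3, adjusted p = 0.00665) in siControl and 0.37 ± 0.11 (SE, n = 3, adjusted p = 0.0130) in siBach1 cells.

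Axin2, the negative-feedback target commonly read as a gauge of canonical signalling, was at the limit of detection. It was above background on 0 of 3 siControl and 1 of 3 siBach1 arrays at day 0, and on 2 of 3 and 3 of 3 at day 2. The probe thus entered the test only through the siBach1 arrays of day 2, the group where it was highest. Its comparisons with that group describe the values and are no support for a difference. Its probe read -5.37, -5.56 and -6.31 in siControl and -4.32, -5.32 and -4.94 in siBach1 cells at day 0, then -3.29, -3.81 and -4.93 (siControl) with -2.82, -2.95 and -3.38 (siBach1) at day 2. In siControl cells the day 2 signal was at least 1.55-fold above the dimmest signal that counted as measured on the day 0 arrays (adjusted p = 0.00480 in the fit), and in siBach1 cells the measured rise was 1.81 ± 0.41 (SE, n = 3, adjusted p = 0.00352). A fold given as "at least" here sets the bright group's mean against the dim group's mean after raising each dim value to the lowest signal well above background on that array. The bound itself was not tested, and an adjusted p beside it is that of the fit to the measured values. With normexp background correction the rises were 0.52 in siControl and 0.47 in siBach1 cells. No silencing difference is given at day 0, where the probe was not well above background on 5 of 6 arrays. At day 2 the groups overlapped, with a silencing difference of 0.96 (adjusted p = 0.167; adjusted p = 0.0355 with the replicate number as a block, 0.0355 to 0.420 over its alternatives). The 95% interval of the day 2 difference, likewise not adjusted, ran from 0.04 to 1.88. Its other probe was above background on no array. Axin1, the scaffold of the destruction complex, fell by 0.62 ± 0.08 (SE, n = 3, adjusted p = 8.46e-05) and 0.67 ± 0.10 (SE, n = 3, adjusted p = 0.000305) over time in siControl cells by its 2 probes, and its silencing differences lay between -0.10 and 0.01.

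**Figure D4:**
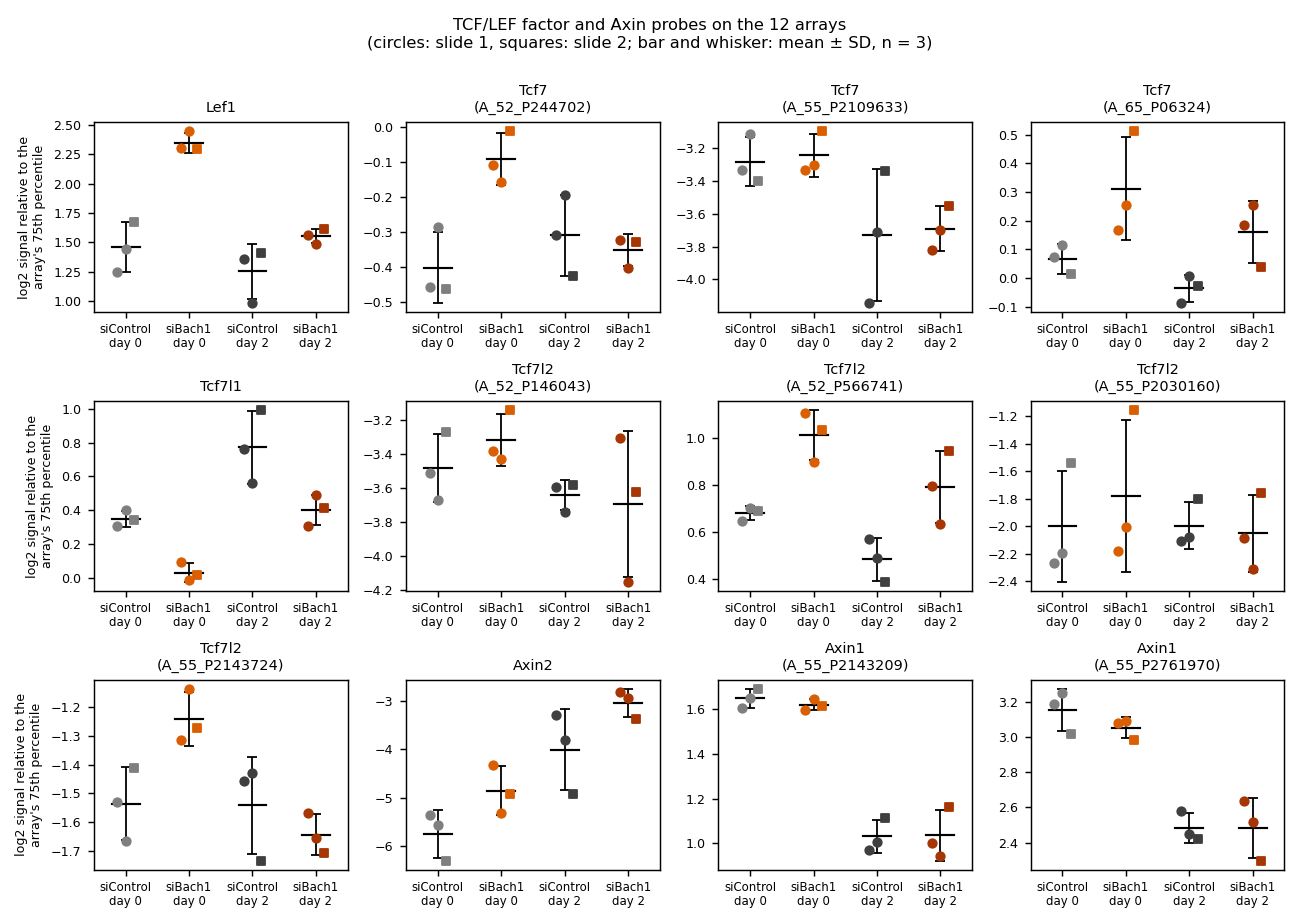
Signal of the tested TCF/LEF factor and Axin probes on each array (log2 relative to the array's 75th percentile, vertical axes differ between panels) in the 4 conditions, with mean and SD over 3 arrays. Lef1 is highest on the siBach1 arrays of day 0, Axin2 is higher at day 2 and Axin1 lower, and the probes of Tcf7 and Tcf7l2 differ among themselves.

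Wnt9a, Dkk3, Fzd9, Fzd5 and Fzd2 rose and Wnt7b and Dkk2 fell at least 2-fold by the fitted values during differentiation of siControl cells. Dkk3 and Fzd5 did so by 1 of 2 tested probes. The Dkk2 change ran from -1.43 to -0.62 over the alternatives, so it was under 2-fold in some of them. So were Fzd2, from 0.98 to 1.16, and the Wnt7b probes, from -1.60 to -0.91 and from -1.32 to -0.86. For Fzd5 (probe A_66_P128199) the rise was 1.21 ± 0.17 (SE, n = 3, adjusted p = 0.000135) in siControl and 1.66 ± 0.17 (SE, n = 3, adjusted p = 1.37e-05) in siBach1 cells, but 0.62 and 0.85 with normexp background correction. Its other probe (A_51_P166456) rose by 0.41 (adjusted p = 0.0102) in siControl and 0.81 (adjusted p = 0.000135) in siBach1 cells, under 2-fold in both. From day 0 to day 2, 18 of 46 passed in siControl cells (11 higher, 7 lower), or 39.1% beside 53.4% of all tested probes (24.6% higher, 28.7% lower). In siBach1 cells 24 passed (16 higher, 8 lower), or 52.2% beside 56.1% of all (23.8% higher, 32.3% lower). By the fitted values, 9 probes in each changed at least 2-fold (in siControl cells Axin2 is among them, whose bound is lower), beside 20.0% and 20.5% of all. Of the 11 Frizzled probes, 5 rose and 1 fell in siControl cells, and 8 rose and 1 fell in siBach1 cells. Fzd1, Fzd4 and Fzd8 passed in siBach1 but not in siControl cells, with the limit that Fzd1 also passed in siControl cells with the replicate number as a block (0.78 against 0.30; adjusted p = 0.0195 with the replicate number as a block, 0.0163 to 0.206 over its alternatives). In siControl cells the Fzd4 probe A_66_P132734 (adjusted p = 0.0535) also passed in 5 of 23 settings and Fzd8 in 6 of 23. The changes were 0.96 against 0.09 and 1.17 against 0.54 for the Fzd4 probes, and 0.93 (0.33 with normexp background correction) against 0.44 for Fzd8. The test of the difference itself gave adjusted p = 0.165 for Fzd1, 0.0946 and 0.260 for Fzd4 and 0.393 for Fzd8, so a difference between the siRNAs was not shown. The siRNA comparisons at the same day share arrays with these changes over time.

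Genes elsewhere in the pathway were read from a list of 89 genes (190 probes, 144 of them tested) covering ligand secretion, Frizzled turnover, the destruction complex, polarity signalling, nuclear cofactors and known targets. At day 0, 37 of 144 passed upon silencing (24 higher, 13 lower), or 25.7% beside 17.1% of all tested probes. At day 2, 22 did (9 higher, 13 lower), or 15.3% beside 12%. Gsk3a, Csnk1g1 and Vangl1 fell at least 2-fold at day 0, each by 2 probes. Gsk3a, a kinase that marks β-catenin for degradation, differed by -1.57 ± 0.16 (SE, n = 3, adjusted p = 0.000135) and -1.39 ± 0.11 (SE, n = 3, adjusted p = 3.09e-05). Csnk1g1, a casein kinase that phosphorylates Lrp6, differed by -1.47 ± 0.09 (SE, n = 3, adjusted p = 1.00e-05) at day 0 and -1.11 ± 0.09 (SE, n = 3, adjusted p = 0.000116) at day 2. A second, dimmer probe was at least 2.10-fold lower at day 0 (adjusted p = 0.00376 in the fit), and another showed -0.61 (adjusted p = 0.216). Vangl1, a membrane protein of planar cell polarity, differed by -1.24 ± 0.12 (SE, n = 3, adjusted p = 0.000118) and -1.14 ± 0.10 (SE, n = 3, adjusted p = 5.88e-05). Prickle1, which acts with Vangl proteins, rose by 1.19 ± 0.26 (SE, n = 3, adjusted p = 0.0116) at day 0 by 1 of 3 probes, with 1 of 3 siControl arrays above background, and by 0.84 ± 0.09 (SE, n = 3, adjusted p = 0.000185) by another.

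Ror1, an alternative Wnt receptor, was above background on 1 siControl and 0 siBach1 arrays of day 0, so no silencing difference is given for it at day 0. In siBach1 cells it was at least 1.40-fold higher at day 2 than at day 0 (adjusted p = 0.000141 in the fit). At day 2, Wisp2, a secreted Wnt target, was higher by 1.08 ± 0.31 (SE, n = 3, adjusted p = 0.0495). Tnik, a kinase that binds TCF factors, was at least 1.44-fold higher by a probe above background in the siBach1 group of day 2 alone (adjusted p = 0.0438 in the fit). That probe entered the test only through the group where it was high, so its value is a description and no support for a difference. The 3 other tested probes of Tnik did not pass at day 2. Shisa2, which retains Frizzled in the endoplasmic reticulum, differed by -1.03 ± 0.27 (SE, n = 3, adjusted p = 0.0335). The β-catenin gene Ctnnb1 differed by 0.19 (adjusted p = 0.116), 0.32 (adjusted p = 0.206) and 0.46 (adjusted p = 0.0103) at day 0 by its 3 probes, of which the last passed. Cyclin D1 (Ccnd1) was lower by 0.65 ± 0.16 (SE, n = 3, adjusted p = 0.0214) upon silencing at day 0 and differed by -0.07 (adjusted p = 0.848) at day 2. Both Myc probes were between -0.06 and 0.08 in the silencing comparisons.

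Over differentiation 80 of these 144 probes passed in siControl cells (49 higher, 31 lower) and 81 in siBach1 cells (39 higher, 42 lower), shares of 55.6% and 56.2% that lie near the 53.4% and 56.1% of all tested probes. In siControl cells the genes that rose at least 2-fold by a probe were Amer1, Btrc, Celsr3, Daam2, Frat1, Fst, Gsk3b, Nkd2, Porcn, Prickle1, Shisa2, Tle2, Tnik, Tnks and Wisp2. Porcn, the acyltransferase needed for Wnt secretion, rose by 3.50 ± 0.17 (SE, n = 3, adjusted p = 1.18e-07) and Fst, the activin antagonist follistatin, by 4.03 ± 0.23 (SE, n = 3, adjusted p = 3.53e-07). Shisa2 was at least 5.16-fold higher at day 2, with no day 0 array above background. The genes that fell at least 2-fold by a probe were Ccnd1, Celsr1, Csnk1e, Lgr6, Myc and Ruvbl2. Ccnd1 dropped by 2.62 ± 0.16 (SE, n = 3, adjusted p = 5.94e-07) and the Myc probes by 1.50 and 1.57 (adjusted p = 3.95e-05 and 4.31e-05). In the test of the difference 8 of 144 probes passed (3 higher, 5 lower), or 5.56% beside 4.59% of all.

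The probes whose signals most closely followed that of Axin2 over the 12 arrays were not among those closest to Lef1 or Tcf7. A single Fbxw11 probe was among the closest to both Lef1 and the Tcf7 probe that passed upon silencing. Pearson's r was computed against the other tested Wnt and pathway probes and is a description, since the arrays share 4 conditions and 2 slides. Closest to Axin2 were Fzd5 (r = 0.94), Frat1 (r = 0.93), Celsr3 (r = 0.91), Nkd2 (r = 0.91) and Daam2 (r = 0.90). Several of the Axin2 values used, most of them from day 0, were not well above background, which limits these r. Closest to Lef1 were Ctnnb1 (r = 0.91), Fbxw11 (r = 0.88), Nlk (r = 0.87), Tle1 (r = 0.87) and Bcl9 (r = 0.87). For the Tcf7 probe that passed upon silencing they were Fbxw11 (r = 0.78), Vangl2 (r = 0.73), Ryk (r = 0.73), Vangl2 (r = 0.69) and Tcf7l2 (r = 0.67). The other Tcf7 probes had other neighbours. Myc (r = 0.84) was closest to A_55_P2109633. Ctnnb1 (r = 0.74) was closest to A_65_P06324, whose list also held Lef1 (r = 0.67).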

How the data were processed

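C2C12 cells were transfected with siControl or siBach1, and 12 Agilent 1-colour arrays (3 per condition) were hybridised over 2 slides, replicates 1 and 2 on the first. The deposited intensity values are the scanner's processed signals, which per the file headers were made with Feature Extraction 10.7.3.1 (9.1 in the submitters' processing notes) by background subtraction, on an array design annotated to mm9. The deposited table of log2 values was normalized by the authors to each array's 75th percentile and centred on each probe's median, and 99.9% of its values lay within 0.01 of the same steps applied here. It was used as an alternative.

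Control and outlier spots (76 to 110 per array) were removed, spots of a probe averaged, and log2 signals set relative to the 75th percentile. Testing was limited to the 29664 of 56605 probes with the scanner's above-background flag on the 3 arrays of some condition. One limma 3.58.1 fit (R 4.3.3) over 12 arrays gave 5 comparisons with Benjamini-Hochberg adjustment over all tested probes. SE and n refer to this fit and to the arrays per condition. No spot was saturated, and the number of arrays limits the precision. The fit was tested on simulated data.

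Deviations from the group means correlated between same-numbered arrays in all 18 pairs (r = 0.142 to 0.595), so the replicate numbers were taken to pair the arrays. The fit reported had been set without a block, so its SE, p-values and counts leave this pairing out. Blocked values are given where they change a call. The alternatives were normexp background correction (offset 50), quantile normalization, the authors' values, filters on dim probes, the replicate number or slide as a block, the first slide alone, the arrays of the comparison alone, the methods' t-test, 1 probe per gene, a 2-fold limit, and each array left out. Array values are given for Wnt probes that passed in a silencing comparison or in the difference between days, or changed at least 2-fold over time in siControl cells. Pathway genes were named where they passed with at least 2-fold change (differences between groups that were both not well above background are not given), with Ctnnb1, Ccnd1 and Myc, and the 5 most similar probes were taken by Pearson's r. Fzd2 at day 0 and other values beside these were chosen after they were seen. Gene symbols are those of the array design, and 65 of 69 RefSeq accessions of Wnt probes matched the reference, all with the same symbol. The genes and lists were chosen with earlier results of these data known.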

Additional observations from a re-analysis of the deposited data

Results flagged for a closer look

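The effect of Bach1 silencing on Fzd3 and Fzd9 differed between day 0 and day 2 by the limma test of the difference itself. For Fzd3 it changed by -0.76 on the log2 scale from day 0 to day 2 (adjusted p = 0.0109), and for Fzd9 it changed by -1.21 (adjusted p = 0.0218). On all 3 siBach1 arrays both genes lay above the siControl arrays at day 0 and below them at day 2. Neither day 2 difference passed in the limma fit, with -0.15 (adjusted p = 0.295) for Fzd3 and -0.46 (adjusted p = 0.106) for Fzd9. A reversal of the effect was thus not shown. Of all tested probes, groups did not overlap for 37.3% at day 0 and 32.8% at day 2. The 2 genes were 4.35% of the tested Wnt probes, beside 4.59% of all probes that passed the test of the difference. Over the alternatives the adjusted p ran from 0.00608 to 0.0855 for Fzd3 and from 0.0108 to 0.106 for Fzd9.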

How the results depend on the processing

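No call of a Wnt probe whose array values are given reversed its direction under any alternative. For silencing at day 0 (10 of 46 Wnt probes), 4 passed with no filter on dim probes, 16 by the methods' t-test without adjustment and 5 after Benjamini-Hochberg, 1 with a 2-fold limit, and 4 to 10 with an array left out. The lower counts came without siControl replicates 1 (5), 2 (4) or 3 (6) and siBach1 replicates 1 (6) or 3 (6) of day 0. At day 2 (8), 4 passed with no filter, 15 with the replicate number as a block, 3 on the first slide alone, 4 with the arrays of the comparison alone, 1 by the t-test after adjustment, 2 with a 2-fold limit, and 4 to 7 with an array left out. Counts were 4 without siControl replicates 1 or 3 or siBach1 replicate 3 of day 2, and 5 without siBach1 replicate 1 of day 2, siControl replicates 1 or 2 of day 0 or siBach1 replicate 1 of day 0. Over time 9 passed with a 2-fold limit in siControl (18 without) and 9 in siBach1 cells (24 without), and 16 to 20 and 21 to 25 passed with an array left out. For the difference between days (2), limma called 0 with no filter (11 at an unadjusted p under 0.05) and 0 on the first slide alone (8 unadjusted), 5 with the replicate number and 5 with the slide as a block, 1 with a 2-fold limit, and 1 to 3 with an array left out. It was 1 without siControl replicates 1 or 2 of day 0, siControl replicate 1 of day 2 or siBach1 replicates 1 or 2 of day 2. Of the other pathway probes, 23 passed at day 0 (37 in the fit reported) and 5 at day 2 (22) with no filter. In the difference between days (8), 5 passed with quantile normalization, 0 with no filter (37 unadjusted), and 26 with the replicate block. The blocked fit also passed Axin2 at day 0, where the probe was not measured in siControl cells. With no filter more probes enter the adjustment, and leaving arrays out leaves fewer samples; the cause of the other changes was not tested. The replicate block changed no call of a Wnt probe from passing to not passing. Beside the blocked values given above it added, over time, Fzd1, Rspo3, Tcf7 and Wnt4 in siControl cells (adjusted p = 0.0195, 0.0181, 0.0286 and 0.0206) and Lrp6, Tcf7, Wnt4 and Wnt6 in siBach1 cells (0.0357, 0.0285, 0.00956 and 0.0217), with Lrp6 at day 2 (0.0407) and Wnt5b in the difference (0.0264), and changed no other call. Axin2 and Fzd8 were not above background on all arrays, which limits their values.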
